A study of Mus musculus with 9 samples.

Results

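The wild-type (WT) striatum libraries are 3 of the 9 libraries of a mouse RNA sequencing series, chosen by their titles alone, and they are described here on their own, with the 6 knockout libraries (3 cGAS KO, 3 STING KO) serving only as a range for library quality and for a few marker sums. All animals were on a C57BL/6J background, the knockouts were made with CRISPR-Cas9, and the WT samples carry no allele or agent in their labels. Ischemic stroke is named in the series text as having preceded the collection of the brains. The sample labels name the tissue, striatum, and the genotype, and give no stroke status, side, time, age or sex, and libraries of uninjured mice were not analysed here. RNA was extracted with Trizol, and polyadenylated transcripts were sequenced as paired reads. Nothing in the labels states that the 3 replicates came from separate animals, so every spread below is the spread between these 3 libraries.

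The striatum, the entry station of the basal ganglia, receives glutamatergic fibres from the cortex and thalamus and dopaminergic fibres from the midbrain. Most of its neurons are GABAergic spiny projection neurons, which fall into a direct pathway class with the dopamine receptor D1 and the peptides substance P and dynorphin, and an indirect pathway class with the dopamine receptor D2, the adenosine receptor encoded by Adora2a and enkephalin. Both classes share a cAMP signalling machinery built around adenylyl cyclase 5, the phosphodiesterase PDE10A and the phosphoprotein DARPP-32. The cell bodies of cortical glutamatergic neurons lie outside the striatum, and the lateral ventricle with its ependyma and choroid plexus lies beside it.

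Levels are counts scaled to a library total of 1000000 (CPM), and 3 values in a row are those of WT replicates 1, 2 and 3 in that order. Ranks, sums and shares in CPM describe where the counts of a library lie and favour long genes. Levels per length of merged exons are given as TPM, scaled to the same total. The library totals were 21286775, 18546883 and 14627748 counts, so that 3 counts, the limit that a count of 0 allows, equal 0.141, 0.162 and 0.205 CPM. At least 1 count was found for 25438, 25275 and 22187 genes, and for 24488, 24712 and 22187 genes after thinning to the smallest total. No pair of the 3 libraries agreed within sampling noise.

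WT replicate 3 stood apart from the other 2, and results are therefore given for each library. Mitochondrially encoded genes took 6.54%, 7.88% and 4.39% of counts, where the 6 knockout libraries spanned 5.07% to 9.63%. The 83 ribosomal protein genes took 0.893%, 0.763% and 0.254%, and the knockout libraries 0.477% to 0.996%. WT replicate 3 was thus below every other library of the series in both. Its counts also lay more on long genes, as described with the spread between libraries at the end.

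The 4 markers of neurons, astrocytes and myelin named for these libraries were found in each of them. Ppp1r1b (ENSMUSG00000061718, chromosome 11, 98348404 to 98357796, plus strand of GRCm38), which encodes DARPP-32, was at 1459, 1113 and 193 CPM and ranked 42, 60 and 1086 among all genes. Penk (ENSMUSG00000045573, chromosome 4, 4133531 to 4138819, minus strand), the precursor of the enkephalins, was at 1135, 879 and 141 CPM and ranked 58, 96 and 1622. Both are therefore among the most abundant messages of replicates 1 and 2 and several-fold lower in replicate 3. Mbp, which encodes myelin basic protein, was at 5999, 3633 and 1344 CPM and ranked 6, 11 and 51. Gfap (ENSMUSG00000020932, chromosome 11, 102887336 to 102900912, minus strand), the intermediate filament of astrocytes, was at 126, 104 and 62.3 CPM. All 4 were highest in replicate 1 and lowest in replicate 3. Of all 16019 genes with a mean of at least 1 CPM, 43.5% were highest in replicate 1 and 50.7% lowest in replicate 3. The mean levels were 922 ± 655 CPM for Ppp1r1b, 718 ± 516 CPM for Penk, 3659 ± 2328 CPM for Mbp and 97.4 ± 32.4 CPM for Gfap (SD, n = 3).

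The ranking was led by the mitochondrial genome. mt-Co1, a subunit of cytochrome c oxidase, held rank 1 in each library with 20449, 24784 and 13892 CPM. mt-Cytb, the cytochrome b of complex III, followed with 11279, 13130 and 3859 CPM. The complex I subunit gene mt-Nd5 did not follow the same order, with 6031, 7945 and 10942 CPM, and was the mitochondrial gene among the leading 4 that was highest in replicate 3. Per length, mitochondrial transcripts made up 20.9%, 25.2% and 17.0% of the summed TPM. Several mitochondrial genes have near-identical copies in the nuclear genome, and their split is uncertain: the annotated gene Gm10925 on chromosome 1 (24613974 to 24614651) shares 100% of its 21-base words with mt-Atp6 and was at 88.9, 526 and 32.7 CPM.

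Among nuclear genes, the highest mean levels belonged to myelin, astrocyte and neuronal transcripts. Slc1a2, the astrocytic glutamate transporter GLT-1, was at 3323, 3880 and 6506 CPM. Then came the long noncoding RNA Meg3 with 3838, 3929 and 5366 CPM, followed by Mbp. These leaders did not share 1 order of libraries, Mbp being highest in replicate 1 and Slc1a2 and Meg3 in replicate 3. The calcineurin subunit Ppp3ca was at 2430, 2653 and 2894 CPM. Kif5a, a neuronal kinesin heavy chain, was at 2532, 2726 and 2557 CPM, a mean of 2605 ± 105 CPM, the smallest spread relative to the mean among the leading 20 nuclear genes. Camk2a, the alpha subunit of the synaptic kinase CaMKII, was at 1767, 2305 and 3180 CPM.

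**Figure D1:**
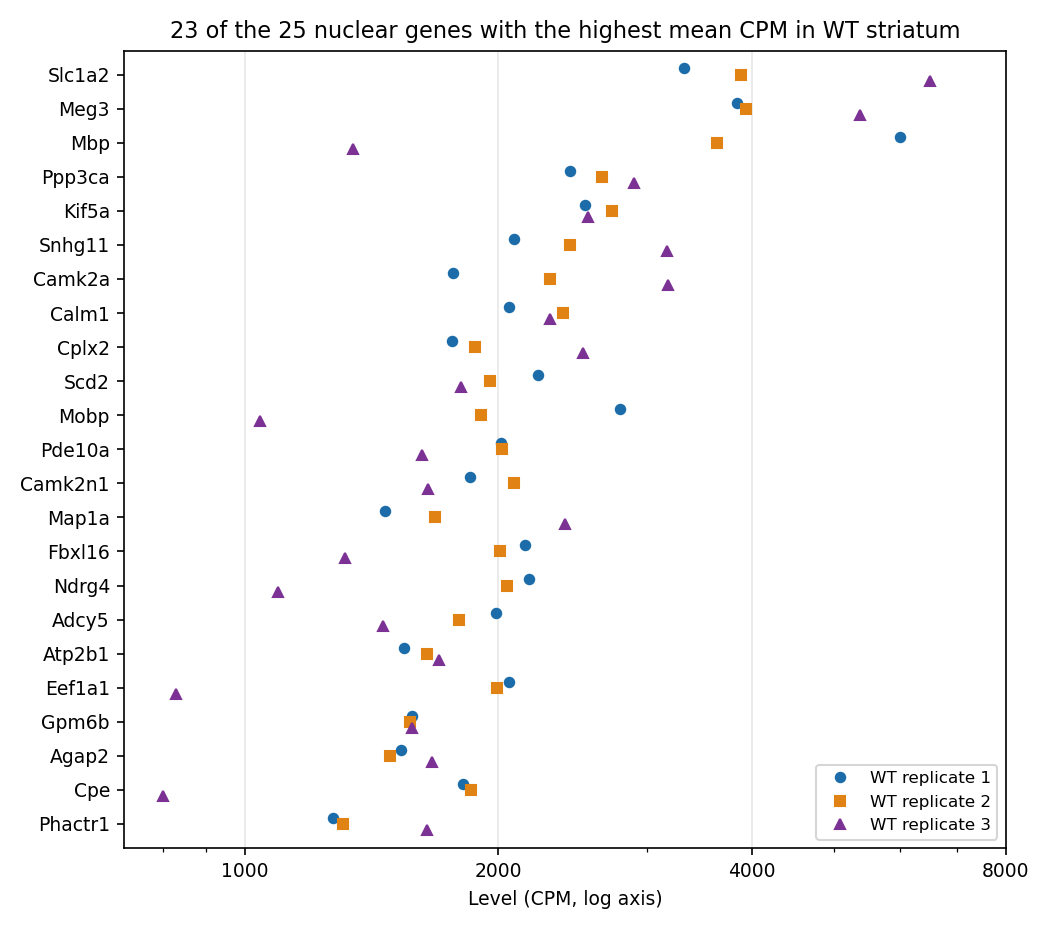
Level in CPM (log axis) of 23 of the 25 nuclear genes with the highest mean CPM, 1 symbol per WT library. The symbols of replicate 3 lie to the left for Mbp and to the right for Slc1a2.

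Dividing by length changed which genes led. The 100 nuclear genes with the highest mean CPM had a median merged exon length of 6986.5 bp, those with the highest mean TPM 3291 bp, and all 16019 genes with a mean of at least 1 CPM 4237.5 bp. Of the 100 leading genes by mean CPM, 59 were also among the 100 by mean TPM. On the TPM scale an annotated microRNA gene of 57 bp, Gm23935, came first with 5082, 3103 and 15509 TPM, a value that rests on a length shorter than a read. High on that scale was also Ttr, the thyroxine carrier made by the choroid plexus, at 8232, 251 and 58.5 TPM. Ttr thus owes its place to replicate 1 alone. Behind it stood Eef1a1, the translation elongation factor, at 3113, 3016 and 1615 TPM, and Nrgn, the postsynaptic calmodulin binder neurogranin, at 2929, 2770 and 1677 TPM. Penk ranked 12th among nuclear genes by mean TPM, at 2621, 2031 and 419 TPM, which made it the first listed spiny neuron marker of that ranking.

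The libraries shared most but not all of their leading genes. Of the 100 highest nuclear genes of each library, 54 were common to all 3. The 10 highest genes of a library held 7.78%, 8.57% and 5.86% of its counts, and the 1000 highest 49.3%, 50.7% and 51.8%. Among the 100 highest nuclear genes by mean CPM were 14 of the listed neuronal genes and 5 of the listed glial genes, and 0 of the listed vascular or immune genes. By mean TPM these numbers were 9, 10, 0 and 0.

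Sums over marker lists placed neuronal and glial transcripts at a similar level, with vascular and immune transcripts far below. The 91 neuronal markers held 2.99%, 2.98% and 2.18% of counts, a mean of 2.72 ± 0.464% (SD, n = 3) and 2.98% without replicate 3. The 48 markers of astrocytes, oligodendrocytes and their precursors held 3.16%, 2.43% and 2.02%, a mean of 2.53 ± 0.581%. The 45 markers of endothelial cells, mural cells and fibroblasts held 0.136%, 0.135% and 0.125%, a mean of 0.132 ± 0.00591%. The 48 markers of microglia and other leukocytes held 0.0657%, 0.0657% and 0.0384%, a mean of 0.0566 ± 0.0158%. These are shares of transcripts over chosen genes and not of cells, and in bulk tissue fewer cells of a type and less RNA per cell cannot be told apart. The vascular share had the smallest spread of the 4 in proportion to its mean, and the immune share was equal in replicates 1 and 2 and lower in replicate 3. The neuronal share of replicate 3 lay below all 6 knockout libraries, which spanned 2.63% to 3.08%.

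**Figure D2:**
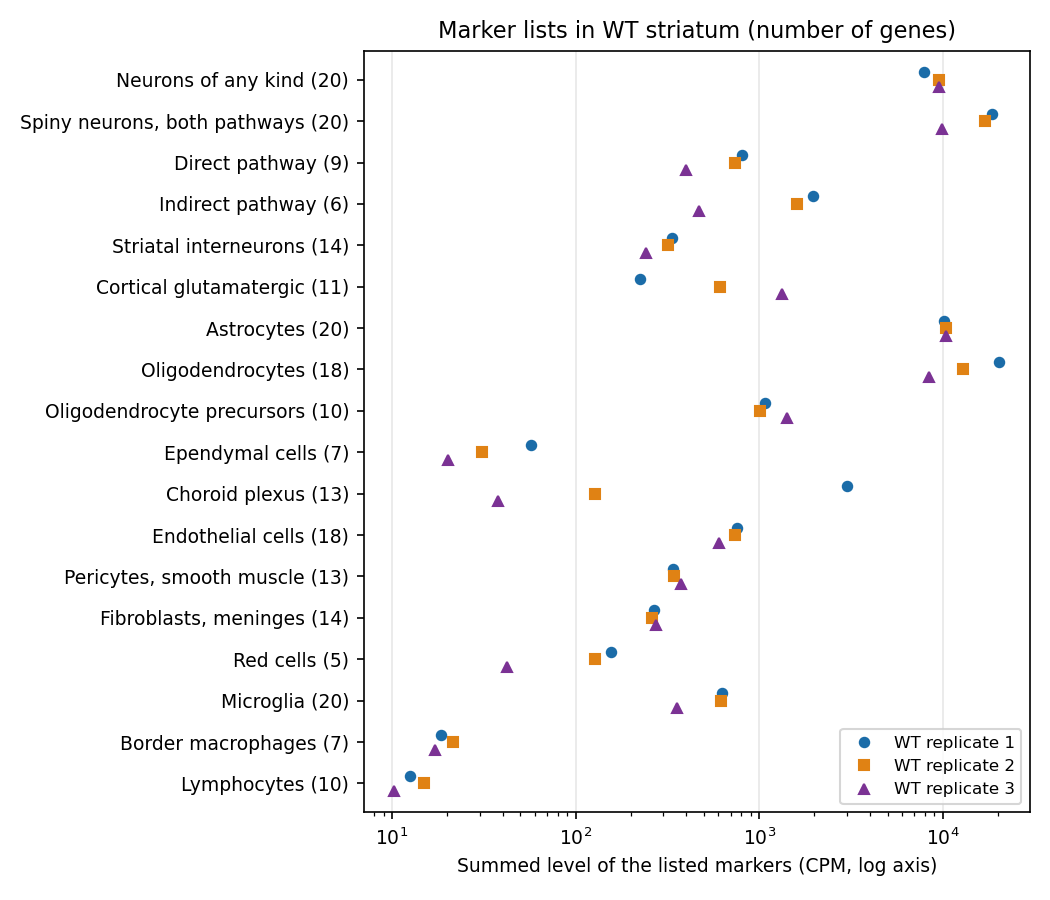
Summed level in CPM (log axis) of the markers of each cell type in the 3 WT libraries, with the number of genes in each list in brackets. Astrocyte and general neuron markers nearly coincide, while choroid plexus markers run from 2992 CPM in replicate 1 to 37.9 CPM in replicate 3 and cortical neuron markers run the other way.

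Transcripts found in neurons of every kind had a fairly even sum, although members lay in opposite orders. The 20 genes of this list summed to 7932, 9521 and 9512 CPM. Rbfox3, which encodes the nuclear antigen NeuN, was at 233, 223 and 216 CPM. It stayed within a narrow range, whereas 7 of the 20 genes differed over 2-fold between libraries. Among all annotated genes the share over 2-fold was 26.7% from 10 to 100 CPM and 22.6% from 100 to 1000 CPM. At 1000 CPM and above it was 31.5%. Map2, a dendritic microtubule protein with long exons, was at 867, 1156 and 1954 CPM, and Uchl1, a short and abundant neuronal hydrolase, at 297, 332 and 110 CPM. Of the 20 genes 9 were lowest in replicate 3 and 11 in replicate 1, against 8127 and 4454 of all 16019 genes with a mean of at least 1 CPM.

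The machinery shared by both spiny neuron classes was abundant in each library and lowest in replicate 3. Its 20 genes summed to 18627, 16933 and 9844 CPM, and the 6 knockout libraries spanned 16090 to 18325 CPM. Members differed in how far the libraries lay apart. Pde10a, the phosphodiesterase that breaks down cAMP and cGMP, was at 2017, 2018 and 1625 CPM. Adcy5, the cyclase that makes cAMP there, was at 1989, 1796 and 1461 CPM, and per length at 1045, 944 and 988 TPM. As counted, the libraries lay within 1.5-fold of each other for these 2 enzymes of cAMP signalling. Libraries were also centred within classes of exon length (length centring). On that scale Pde10a was at 2342, 2281 and 1244 CPM and Adcy5 at 2056, 1878 and 1339 CPM, and neither stayed within 1.5-fold. Gng7, the G protein gamma subunit that couples dopamine and adenosine receptors to the cyclase, was at 1537, 1329 and 566 CPM. Gnal, the alpha subunit of the same G protein, was at 827, 823 and 708 CPM. As counted, replicate 3 was lower by over 2-fold for Gng7 and by under 1.5-fold for Gnal. Gng7 has 3786 bp of merged exons and Gnal 11172 bp. With length centring the values were 1366, 1256 and 670 CPM for Gng7 and 960, 930 and 542 CPM for Gnal. Most of this contrast was then gone. Scn4b, a sodium channel beta subunit, was at 1865, 1645 and 638 CPM. Pde1b, the calcium-dependent phosphodiesterase, was at 1505, 1273 and 617 CPM.

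The transcription factors of spiny neurons were not uniform either. Foxp1 was at 399, 408 and 446 CPM, Rarb, a retinoic acid receptor, at 48.2, 46.2 and 38.4 CPM and Bcl11b, which encodes CTIP2, at 382, 381 and 271 CPM. Meis2 was at 426, 405 and 205 CPM and Rxrg, a retinoid X receptor, at 152, 125 and 39.0 CPM. As counted, the first 3 of these factors were within 1.5-fold over the libraries, and Meis2 and Rxrg were not. With length centring Foxp1 was at 464, 461 and 341 CPM and Bcl11b at 395, 399 and 248 CPM. On that scale Foxp1 was lowest in replicate 3, and Bcl11b was no longer within 1.5-fold. In all, 18 of the 20 shared genes were lowest in replicate 3, against 8127 of all 16019 genes. The median log2 ratio of replicate 3 to replicate 1 was -0.96, against -0.16 over all genes. The median ratio of replicate 2 to replicate 1 was -0.14, against -0.05 over all genes. After centring the libraries within classes of exon length, the median of replicate 3 to replicate 1 was -0.87 for the list and 0.05 over all genes. Length centring thus changed the list's median little. What sets the distance of the list from all genes was not tested.

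**Figure D3:**
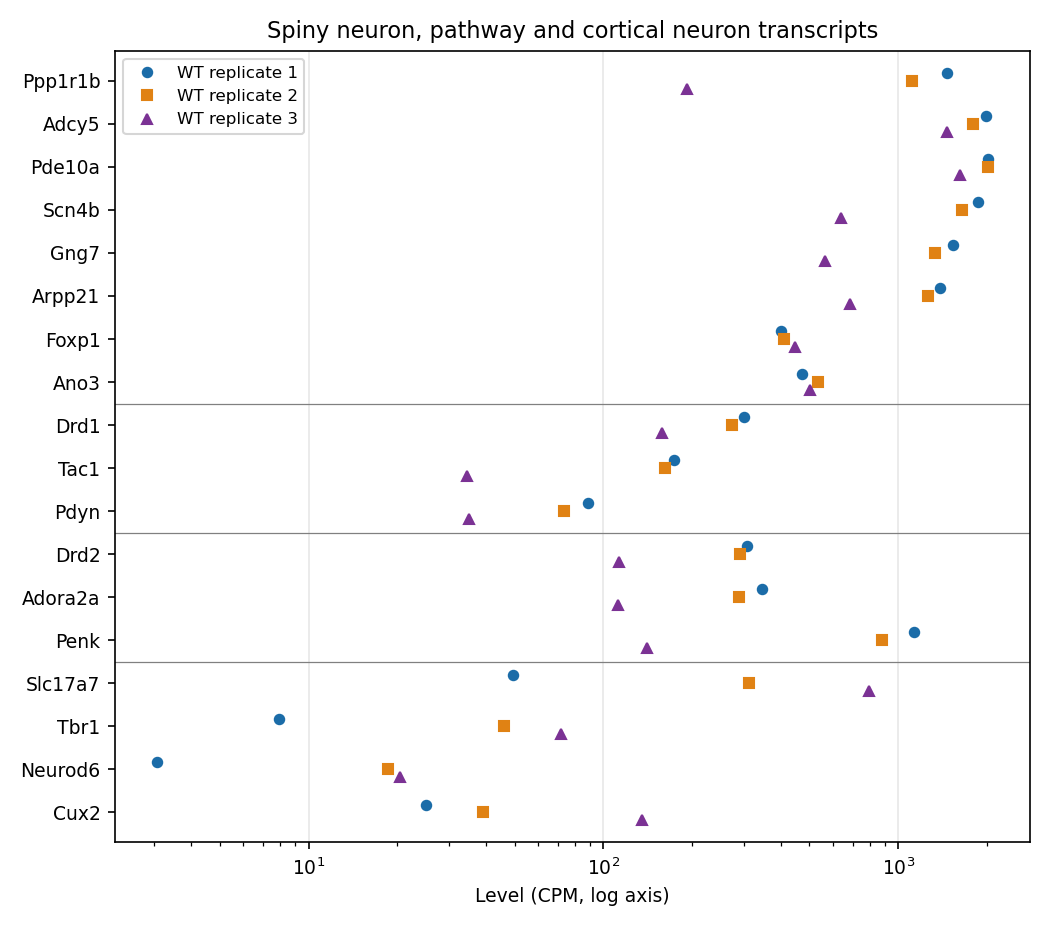
Level in CPM (log axis) of transcripts of both spiny neuron classes (top block), the direct pathway, the indirect pathway and cortical glutamatergic neurons (bottom block), 1 symbol per WT library. Replicates 1 and 2 nearly coincide in the upper 3 blocks, where replicate 3 is mostly lower, and the order is reversed for the cortical genes.

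Markers of the direct pathway were detected in every library. Drd1 (ENSMUSG00000021478, chromosome 13, 54051183 to 54055705, minus strand), the D1 receptor, was at 299, 273 and 158 CPM. Tac1, the precursor of substance P, was at 173, 162 and 34.5 CPM, and Pdyn, the precursor of dynorphin, at 88.6, 73.5 and 35.1 CPM. Chrm4, the muscarinic M4 receptor, was more even with 81.6, 69.8 and 60.4 CPM. As counted, the peptide precursors lay further apart between replicates 1 and 3 than these receptors, and length centring changed this. On that scale Pdyn was at 70.7, 64.8 and 50.04 CPM, Drd1 at 265, 258 and 187 CPM, and Chrm4 was highest in replicate 3 with 56.3, 55.4 and 109 CPM. Tac1 stayed apart with 148, 149 and 43.4 CPM. Isl1 and Ebf1, transcription factors of this class, were at 17.1, 15.3 and 5.47 CPM and at 19.6, 21.3 and 19.8 CPM. Summed over 9 genes the direct pathway list reached 809, 742 and 401 CPM. Of these genes 8 were lowest in replicate 3, against 8127 of all 16019 genes.

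Markers of the indirect pathway showed the same order with a larger distance. Drd2 (ENSMUSG00000032259, chromosome 9, 49340627 to 49408177, plus strand), the D2 receptor, was at 307, 290 and 113 CPM. Adora2a, the adenosine receptor of this class, was at 345, 287 and 112 CPM, and Gpr6, an orphan receptor of this class, at 79.5, 72.0 and 32.4 CPM. With Penk included, the 6 genes summed to 1953, 1602 and 469 CPM. Of them 5 were lowest in replicate 3, against 8127 of all 16019 genes. The median log2 ratio of replicate 3 to replicate 1 was -1.46 for the indirect and -0.92 for the direct list, and -0.84 and -0.50 after length centring. As counted, Ptprm, a receptor phosphatase, was the exception at 49.0, 48.3 and 58.0 CPM. After length centring Ptprm was at 52.5, 51.7 and 50.04 CPM, lowest in replicate 3. Gpr6 was then at 54.9, 57.1 and 58.8 CPM, highest in replicate 3.

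Some ratios between markers within a library were steadier than the levels, and others were not. The TPM of Drd1 divided by that of Drd2 was 0.684, 0.661 and 0.980. Ppp1r1b divided by Penk gave 0.718, 0.707 and 0.764 on the TPM scale, although each gene alone differed over 7-fold in CPM between replicates 1 and 3. On these 2 scales DARPP-32 and enkephalin messages were therefore lower in replicate 3 by nearly the same factor. After length centring Ppp1r1b was at 1166, 981 and 274 CPM and Penk at 785, 698 and 254 CPM. There Ppp1r1b was lower by the larger factor. Penk divided by Tac1 gave 13.6, 11.3 and 8.50, and Penk divided by Pdyn 22.6, 21.1 and 7.08. Enkephalin was the leading opioid peptide message of the tissue in each library by these ratios.

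Other peptide messages were low or uneven. Sst, somatostatin of interneurons, was at 92.9, 82.5 and 20.99 CPM, and Npy, made by the same cells, at 24.9, 22.9 and 5.20 CPM. Cck, cholecystokinin, was highest in replicate 2 with 13.9, 55.6 and 18.9 CPM. Vip was highest in replicate 3 with 2.44, 6.36 and 11.3 CPM. Nts, neurotensin, was at 8.32, 7.44 and 3.90 CPM, Pnoc, pronociceptin, at 3.05, 1.78 and 0.205 CPM, and Cartpt at 0.611, 1.24 and 0 CPM. The 10 precursors together summed to 1543, 1292 and 271 CPM, and most of these counts in replicates 1 and 2 lay on Penk.

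Receptors for glutamate, GABA, endocannabinoids, acetylcholine and opioids did not share the order of the peptides. Their list of 17 genes, dopamine and adenosine receptors included, summed to 4330, 4613 and 4826 CPM. The median merged exon length was 6444 bp for this list and 1469.5 bp for the peptide precursors. After length centring the receptors summed to 4352, 4759 and 4449 CPM, and the precursors to 1105, 1053 and 453 CPM. The receptor sum was thus highest in replicate 3 as counted only. The AMPA receptor subunit Gria2 was at 784, 944 and 1311 CPM and Gria1 at 485, 544 and 496 CPM. The metabotropic receptor Grm5 was at 475, 509 and 677 CPM and the NMDA receptor subunit Grin1 at 457, 451 and 519 CPM. As counted, these glutamate receptors were at least as high in replicate 3 as in replicate 1. The cannabinoid receptor Cnr1 was at 520, 579 and 424 CPM, and the muscarinic receptor Chrm1 at 162, 156 and 133 CPM. The GABA receptor subunit Gabra2 was at 96.0, 101 and 185 CPM. Among opioid receptors, Oprk1 (kappa) was at 39.6, 64.7 and 63.9 CPM and Oprd1 (delta) at 29.9, 30.3 and 51.5 CPM. Oprm1 (mu) was at 1.22, 2.37 and 19.3 CPM, the largest distance of the list. Adora1 was at 120, 122 and 198 CPM, and the dopamine receptor Drd3 was near the limit of detection with 14, 3 and 21 counts.

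Interneuron markers were present at modest levels. The 14 genes summed to 337, 320 and 243 CPM. Cholinergic neurons were represented by Slc5a7, the choline transporter, at 48.3, 47.1 and 38.6 CPM and by Chat, the enzyme that makes acetylcholine, at 22.9, 22.5 and 7.52 CPM. Nos1, the neuronal nitric oxide synthase, was at 86.9, 85.5 and 129 CPM. In all, 11 of the 14 genes were lowest in replicate 3, against 8127 of all 16019 genes, and 2 genes, Nos1 and Vip, were higher there than in replicate 1. The median log2 ratio of replicate 3 to replicate 1 was -0.89 for the list, and -0.12 after length centring.

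Messages of neurons whose cell bodies lie outside the striatum set the libraries apart in the other direction. The 11 cortical glutamatergic markers summed to 225, 611 and 1324 CPM, where the 6 knockout libraries spanned 218 to 832 CPM. Slc17a7 (ENSMUSG00000070570, chromosome 7, 45163949 to 45176142, plus strand), the vesicular glutamate transporter VGLUT1, was at 49.2, 312 and 795 CPM. Tbr1, a cortical transcription factor, was at 7.94, 45.9 and 71.6 CPM. Each of these genes was lowest in replicate 1 and highest in replicate 3, with replicate 2 between them. Cux2, of upper cortical layers, was at 25.04, 39.2 and 136 CPM and Rorb, of layer IV, at 20.2, 25.3 and 55.5 CPM. In all, 10 of the 11 genes were highest in replicate 3 and lowest in replicate 1, against 6352 and 4454 of all 16019 genes. The median log2 ratio to replicate 1 was 2.12 for replicate 2 and 2.56 for replicate 3, against -0.05 and -0.16 over all genes. The exception was Lamp5, at 103, 101 and 73.8 CPM.

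Set against DARPP-32, the cortical signal changed rank between libraries. The TPM of Slc17a7 divided by that of Ppp1r1b was 0.0183, 0.152 and 2.24. In replicate 3 the message of the cortical transporter was therefore more abundant per length than the defining message of spiny neurons. Length centring left the cortical sums at 209, 599 and 1394 CPM. Neurons of thalamus, hypothalamus and midbrain contributed little: Slc17a6, the thalamic transporter VGLUT2, was at 2.30, 6.04 and 6.29 CPM. Avp, the vasopressin precursor, had 0 counts in all 3 libraries. Prkcd, a kinase of thalamic neurons, was at 31.8, 27.8 and 10.4 CPM and made up most of that list.

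Astrocyte markers had the most even sum of all lists with a high level. The 20 genes summed to 10188, 10432 and 10375 CPM. This sum joined genes with opposite orders of libraries. Slc1a2 was at its highest in replicate 3, as given above, and Slc1a3, the transporter GLAST, was at 563, 607 and 532 CPM. Glul, glutamine synthetase, was at 1225, 1224 and 826 CPM. Apoe, the lipid carrier, was at 801, 548 and 96.9 CPM, and Clu, clusterin, at 844, 734 and 191 CPM. Of the 20 genes 14 were lowest in replicate 3, against 8127 of all 16019 genes. With length centring the sums were 9906, 10572 and 9280 CPM. The TPM of Gfap divided by that of Aldh1l1, a marker of all astrocytes, was 2.66, 2.49 and 1.82.

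Oligodendrocyte and myelin markers differed between replicates 1 and 2 as well as from replicate 3. Their 18 genes summed to 20361, 12828 and 8364 CPM, a mean of 13851 CPM. Mobp, a myelin protein, was at 2785, 1906 and 1044 CPM. Mal, a myelin proteolipid, was at 861, 516 and 349 CPM, and Cnp, the myelin phosphodiesterase, at 884, 482 and 277 CPM. In all, 17 of the 18 genes were highest in replicate 1, against 6972 of all 16019 genes. The median log2 ratio to replicate 1 was -0.65 for replicate 2 and -1.09 for replicate 3. The 6 knockout libraries spanned 8598 to 16145 CPM for this list, so that replicate 1 lay above and replicate 3 below all of them.

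Precursor cells of the oligodendrocyte lineage did not follow the myelin genes. Their 10 markers summed to 1071, 1005 and 1419 CPM. Pdgfra, the growth factor receptor that defines these cells, was at 75.0, 77.2 and 81.4 CPM, a mean of 77.9 ± 3.27 CPM. Gpr17, of cells about to make myelin, was at 119, 88.5 and 100 CPM. Tnr, the matrix protein tenascin R, was at 211, 241 and 561 CPM and raised the sum of replicate 3, while Olig1, a transcription factor of the whole lineage, was at 222, 145 and 86.4 CPM.

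Transcripts of the ventricular lining were concentrated in replicate 1. The 20 choroid plexus and ependymal markers held 0.305%, 0.0159% and 0.00581% of counts, a mean of 0.109 ± 0.170%. Without replicate 1 the mean was 0.0109%. Ttr was at 2587, 78.9 and 14.3 CPM, a 181-fold range and the widest of all genes with a mean of at least 20 CPM. Kl, the anti-ageing protein klotho, was at 128, 11.9 and 3.69 CPM. Folr1, the folate receptor of the choroid plexus, was at 20.9, 0.917 and 0.205 CPM. All 13 choroid plexus genes were highest in replicate 1, against 6972 of all 16019 genes. Their sums were 2992, 128 and 37.9 CPM, where the knockout libraries spanned 27.7 to 562 CPM. Ependymal markers shared this order to a lesser degree, with sums of 57.4, 31.1 and 20.2 CPM. Foxj1, the master regulator of motile cilia, was at 22.3, 11.3 and 3.83 CPM.

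Vascular markers had fairly even sums, although most of the endothelial genes were lowest in replicate 3. The 18 endothelial genes summed to 754, 742 and 605 CPM. Slco1a4, an organic anion transporter of the blood-brain barrier, was at 120, 124 and 119 CPM, and Slc2a1, the glucose transporter GLUT1, at 155, 145 and 132 CPM. Flt1, a VEGF receptor, was at 83.6, 91.0 and 99.4 CPM. These barrier transporters and receptors differed by under 1.5-fold over the libraries. Other endothelial messages did not stay within that range: Egfl7 was at 16.3, 13.4 and 1.16 CPM and Ly6c1 at 42.8, 46.1 and 7.66 CPM. Of the 18 endothelial genes 14 were lowest in replicate 3, against 8127 of all 16019 genes. The median log2 ratio of replicate 3 to replicate 1 was -0.53 for the list, against -0.16 over all genes. The 13 genes of pericytes and smooth muscle summed to 341, 344 and 373 CPM, and Rgs5, a pericyte regulator of G proteins, was at 153, 164 and 191 CPM. The 14 fibroblast and meningeal genes summed to 266, 261 and 274 CPM, led by Fn1, fibronectin, at 80.2, 93.7 and 134 CPM. Of the 13 with a mean of at least 1 CPM, 9 were lowest in replicate 3, against 50.7% of all genes with that mean. Haemoglobin of red cells was present, with Hbb-bs at 71.8, 59.1 and 17.0 CPM and Hba-a1 at 66.5, 54.0 and 19.8 CPM. Since the alpha and beta chains have near-identical copies, the split of haemoglobin reads within each pair is uncertain.

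Microglial markers made up nearly all of the immune sum. The 20 microglial genes summed to 625, 620 and 357 CPM. Csf1r, the receptor that keeps microglia alive, was at 119, 117 and 84.2 CPM. Cx3cr1, the fractalkine receptor, was at 62.6, 55.4 and 55.0 CPM, and P2ry12, the purinergic receptor of resting microglia, at 39.0, 47.8 and 23.8 CPM. The receptors were thus of one order of magnitude in all libraries, while C1qa, a complement subunit with a short message, was at 27.3, 21.8 and 3.01 CPM. In replicate 3, 19 of the 20 genes were at their lowest, against 8127 of all 16019 genes. Length centring brought the sums to 518, 557 and 470 CPM, a smaller distance than the 625, 620 and 357 CPM as counted.

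Leukocytes from the blood were at or near the limit of detection. S100a8 and Ly6g of neutrophils had 0 counts in each library, which allows up to 0.141, 0.162 and 0.205 CPM, and S100a9 had 2, 0 and 0 counts. Ccr2, the chemokine receptor of inflammatory monocytes, had 1, 8 and 0 counts. The 4 monocyte genes together summed to 0.376, 0.863 and 0.273 CPM. Of the 10 lymphocyte genes, Cd3d, Cd3g, Cd8a and Nkg7 had 0 counts in all 3 libraries. Ighm, the heavy chain of IgM, was the one lymphocyte gene above 1 CPM, with 12.1, 14.6 and 10.1 CPM. Border macrophages were represented by Cd163, a haemoglobin scavenger receptor, at 14.5, 15.8 and 13.1 CPM, while Mrc1 was at 2.11, 2.91 and 0.820 CPM and Pf4 had 4, 2 and 0 counts.

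Because the series text speaks of ischemic stroke, 109 genes known to respond to brain injury were read in the same libraries. They held 0.466%, 0.439% and 0.356% of counts, a mean of 0.421 ± 0.0575%. The largest portion came from the heat shock list, with 2275, 2340 and 1884 CPM. Uninjured libraries were not analysed here, so these values are levels and not responses. Secreted mediators of acute inflammation were barely detected. Tnf, Ccl2, Cxcl1, Cxcl2 and Mmp3 had 0 counts in all 3 libraries, as had Sele, an endothelial adhesion molecule. Il1b had 1, 3 and 3 counts and Il6 0, 3 and 0 counts. Vcam1, an adhesion molecule also found in resting brain, was at 44.7, 32.6 and 20.9 CPM. It made up most of the sum of the inflammation list, which was 48.9, 40.1 and 36.2 CPM. Ptgs2, the inducible cyclooxygenase that cortical neurons also express, was at 1.32, 3.88 and 13.9 CPM, highest in replicate 3. So were 39.7% of all 16019 genes with a mean of at least 1 CPM. The cells that this Ptgs2 message came from were not tested.

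**Figure D4:**
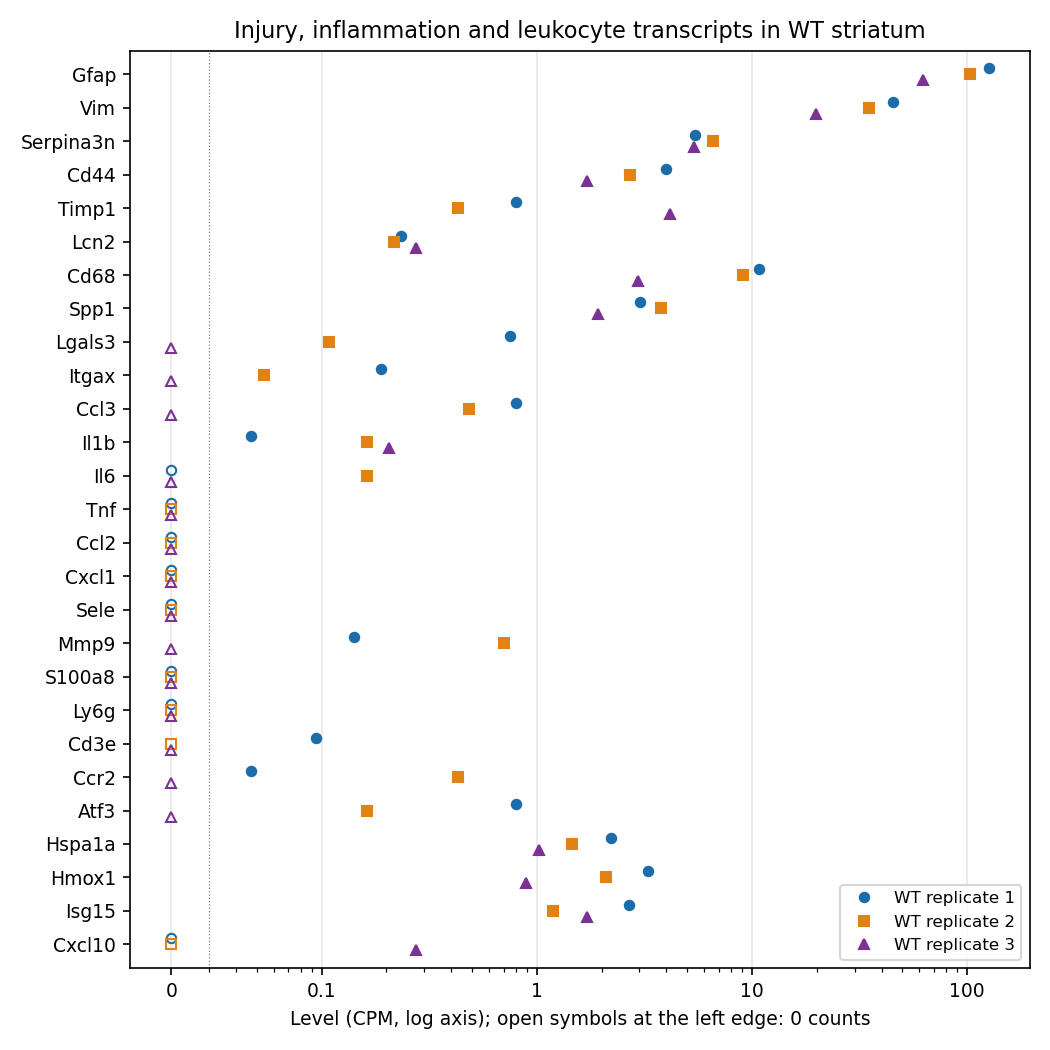
Level in CPM (log axis) of transcripts known to respond to injury and of leukocyte markers in the 3 WT libraries; open symbols at the left edge stand for 0 counts. Gfap and Vim lie between 19.8 and 126 CPM, while Tnf, Ccl2, Cxcl1, Sele, S100a8 and Ly6g had 0 counts in each library.

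Genes known from reactive glia were mostly at low levels. Vim, vimentin, was at 45.3, 34.9 and 19.8 CPM. Serpina3n, an acute phase inhibitor of reactive astrocytes, was at 5.45, 6.58 and 5.40 CPM, and Lcn2, lipocalin 2, had 5, 4 and 4 counts. Osmr, the oncostatin M receptor, was at 6.39, 7.66 and 9.09 CPM. The 11 genes of this list summed to 96.9, 81.0 and 68.4 CPM, of which Vim was the largest member. For activated microglia, Lpl, a lipase also found in other brain cells, was at 102, 112 and 78.2 CPM. Cd68, a lysosomal protein of phagocytes, was at 10.8, 9.11 and 2.94 CPM. Spp1, osteopontin, was at 3.01, 3.77 and 1.91 CPM. The disease-associated genes Itgax and Cst7 had 4, 1 and 0 counts and 2, 1 and 2 counts. Of the 14 genes of this list 7 had a mean of at least 1 CPM.

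Genes of cell stress included constitutive and inducible members. The chaperone Hspa8 was at 1029, 1054 and 795 CPM and Hsp90aa1 at 682, 752 and 681 CPM. Hspa1a, the chaperone induced by heat and ischemia, was at 2.21, 1.46 and 1.03 CPM. Per length, Hspa8 was at 903, 925 and 898 TPM and Hspa1a at 2.81, 1.85 and 1.68 TPM, so that the constitutive chaperone was the more abundant message by far. Among genes induced by low oxygen, Ldha, lactate dehydrogenase A, was at 149, 154 and 91.3 CPM, Vegfa, the endothelial growth factor, at 75.0, 58.8 and 42.2 CPM and Hif1a at 83.0, 81.1 and 90.6 CPM. Pdk1, a kinase that shuts pyruvate out of mitochondria, was at 33.9, 41.1 and 73.2 CPM. The 10 hypoxia genes summed to 545, 497 and 420 CPM. Of genes tied to axon damage, Gap43, a growth cone protein, was at 156, 160 and 68.3 CPM, and Atf3, the damage-induced transcription factor, had 17, 3 and 0 counts.

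Immediate early genes, which neurons switch on with activity, were clearly measured. The 14 genes summed to 886, 685 and 606 CPM, and the 6 knockout libraries spanned 785 to 2112 CPM. Egr1 was at 340, 245 and 172 CPM. Egr3 was nearly equal in the 3 libraries, with 156, 159 and 158 CPM, and Arc, the synaptic plasticity protein, was at 101, 76.1 and 77.6 CPM. Nr4a1, an orphan nuclear receptor, was at 101, 55.7 and 68.5 CPM and Egr4 at 51.2, 29.3 and 9.09 CPM. Fos, in contrast, was at 5.45, 7.87 and 6.84 CPM. Replicate 1 was highest for 8 of the 14 genes, against 6972 of all 16019 genes.

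Interferon-stimulated, complement and p53 target genes completed the injury lists. The 13 interferon-stimulated genes summed to 41.8, 28.7 and 20.03 CPM. Ifitm3, an antiviral membrane protein, was at 7.28, 4.37 and 1.03 CPM. No member of this list had a mean above 10 CPM. The complement list, without C1q, summed to 63.6, 61.8 and 54.7 CPM and included C4b at 29.5, 22.9 and 29.5 CPM. C3, the central component, had 16, 9 and 4 counts. The 7 genes of p53 and apoptosis summed to 179, 169 and 130 CPM, led by Mdm2, the ubiquitin ligase of p53, at 86.2, 80.6 and 52.9 CPM.

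Sex-linked transcripts were of the male kind in all 3 libraries. Xist, the RNA of the inactive X chromosome, had 9, 5 and 0 counts. Ddx3y, a Y-linked helicase, was at 78.1, 80.4 and 99.2 CPM, and Kdm5d, Uty and Eif2s3y were above 25 CPM in each library. The 3 libraries therefore did not differ in this respect.

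Replicates 1 and 2 were close to each other and replicate 3 was not. Of 16019 genes with a mean of at least 1 CPM, 97.7% lay within 2-fold between replicates 2 and 1, 70.7% between replicates 3 and 1 and 77.8% between replicates 3 and 2. The coefficient of variation between the 3 libraries, estimated with edgeR over the same genes, was 40.9%. Without replicate 3 it was 16.3%, without replicate 1 44.1% and without replicate 2 51.9%. One library thus set most of the spread. These edgeR values leave counting error out. In the spread of single genes, which includes it, counting error was a small part. The 7815 genes between 10 and 100 CPM had a median coefficient of variation of 21.9%, where counting alone gives 4.25%. Those genes differed by a median of 1.53-fold between the highest and lowest of the 3 libraries and of 1.11-fold between replicates 1 and 2.

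Genes with which a library stood apart were of a different kind for each library. Among 7659 nuclear protein-coding genes with a mean of at least 20 CPM, 822 (10.7%) were over 2-fold lower in replicate 3 than in both others, and 332 (4.33%) over 2-fold higher. The lower genes had a median merged exon length of 2426.5 bp and the higher ones 11307.5 bp, against 5649 bp for all 7659 genes. Short messages thus prevailed on the low side: Pcp4, a calmodulin regulator enriched in striatum, was at 120, 83.2 and 2.60 CPM, the ribosomal protein gene Rpl35 at 38.7, 31.9 and 1.44 CPM and the respiratory chain gene Cox6b1 at 91.3, 77.2 and 6.29 CPM. Of the 80 ribosomal protein genes with a mean of at least 1 CPM, 78 were lowest in replicate 3. Of all 16019 genes with that mean, 8127 were lowest there. An annotated ribosomal RNA gene, CT010467.1, was at 168, 122 and 1384 CPM, and Malat1, a nuclear long noncoding RNA, at 544, 642 and 1771 CPM.

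Replicate 1 stood apart by few genes. Only 9 of the 7659 genes were over 2-fold higher in it than in both others, namely Cd82, Clic6, Col9a3, Enpp2, Igfbp2, Kl, Rps27a, Slc4a2 and Ttr, of which Clic6, Kl and Ttr are on the choroid plexus list. Another 37 genes (0.483%) were over 2-fold lower in replicate 1 than in both others, and 5 of these are listed neuronal genes, all of them cortical. They included Slc17a7, Tbr1, Neurod2, a cortical transcription factor at 3.19, 15.6 and 44.4 CPM, and C1ql3, a synaptic organiser at 2.07, 14.7 and 60.7 CPM. Nr4a2, a nuclear receptor, was among them with 2.77, 55.0 and 30.5 CPM. Replicate 2 stood apart by 3 genes, Cck on the high side and Sox4 and Steap2 on the low side.

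The distance of replicate 3 followed gene length. In the shortest of 10 length classes, with a median of 1646 bp, the median log2 ratio of replicate 3 to replicate 1 was -1.38. In the longest, with a median of 13327.5 bp, it was 0.59. The ratio increased in every step between these classes. Between replicates 2 and 1 the corresponding medians were -0.20 and 0.06. Measured against the mean of WT replicates 1 and 2, the difference between the longest and the shortest class was 1.85 for WT replicate 3, 1.33 for STING KO replicate 2 and 0.98 for cGAS KO replicate 2, and lay between -0.31 and 0.41 for the other libraries. GC content moved with the ratio too, from 0.21 in the class with the lowest to -0.54 in the class with the highest GC content. The source of this pattern was not tested.

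**Figure D5:**
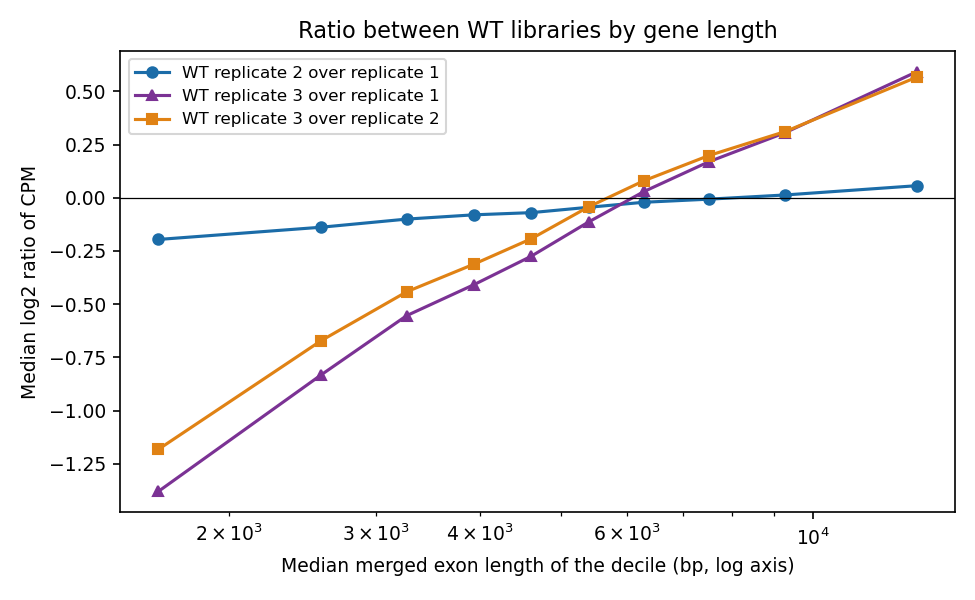
Median log2 ratio of CPM between pairs of WT libraries in 10 classes of merged exon length (bp, log axis). Both lines with replicate 3 climb from the shortest to the longest class, for replicate 3 over replicate 1 from -1.38 to 0.59, and the line of replicate 2 over replicate 1 stays between -0.20 and 0.06.

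Centring the libraries within these length classes left part of the distance in place. Genes within 2-fold between replicates 3 and 1 then made up 78.9% in place of 70.7%. Ppp1r1b was at 1166, 981 and 274 CPM on this scale. The summed level of the shared spiny neuron genes became 18397, 17240 and 9373 CPM, and that of the oligodendrocyte genes 19907, 12918 and 8859 CPM. Some lists drew together: the 18 endothelial genes became 687, 714 and 655 CPM and the 9 genes of axon damage 231, 228 and 243 CPM. Others drew apart, such as the astrocyte list given above and the 13 genes of pericytes and smooth muscle, which became 308, 330 and 409 CPM.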

How the data were processed

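The authors deposited whole-number counts per Ensembl gene ID, 1 file per library. The submitters' processing notes name the aligner HISAT2, the counting tool featureCounts and the build mm10 (GRCm38). Their versions, the annotation, the use of strand and the handling of multiply mapped reads were not given in the sources used here. Overlapping, antisense and near-identical genes are therefore uncertain. Of 54532 IDs, 54495 matched GENCODE M21, which gave symbols, positions and merged exon lengths, and the 37 others held at most 0.0361% of a WT library's counts.

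CPM were computed from library totals with Python 3.11.15, pandas 2.3.3 and numpy 2.4.6, and TPM from merged exon lengths. Groups come from the labels, and depth is given with the libraries. The 3 WT libraries form 1 group, so nothing was tested between groups. The spread is the common dispersion of edgeR 4.0.16 (R 4.3.3, TMM factors, intercept only). That estimate and the length centring were checked on simulated data. For ratios 0.5 CPM was added. Length centring, an alternative chosen after seeing the data, subtracted each library's median log2 deviation within 10 exon length classes, estimated on 11452 protein-coding genes with a mean of at least 5 CPM. Other alternatives were DESeq2 1.42.0 size factors, TMM, other denominators and filters, and leaving out each library.

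The members and the 35 lists (396 symbols, 395 matched) were chosen with earlier results of these data known. Genes named are the 4 markers, the leading genes by CPM and TPM, up to 5 members of each list with the highest mean CPM, up to 2 with the largest ratio between libraries, members with 0 counts, all peptide precursors, receptors, sex-linked genes and spiny neuron transcription factors, and the genes with the largest ratios. Others, such as Il1b, Il6, Lcn2, Spp1, Atf3, Fos and Hspa1a, were chosen after their values were seen. Some items among the genes so named are not reported here. Intervals and floors cover counting error only.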

Additional observations from a re-analysis of the deposited data

How the results depend on the processing

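No paired analysis was possible because 1 group is described and no test was made between groups. The mean sums of all 37 lists and gene families moved by less than the SD between libraries under TMM and under DESeq2 size factors. The TMM factors were 1.006, 0.980 and 1.014, which left means over 3 libraries little room to move. This says little about how robust the lists are. Leaving out 1 of 3 libraries cannot move a mean by more than that SD, so sizes are given instead. The choroid plexus mean went from 1053 to 83.1 CPM without replicate 1, the cortical mean from 720 to 418 CPM without replicate 3, the neutrophil mean from 0.0963 to 0.0270 CPM without replicate 1 and the monocyte mean from 0.504 to 0.325 CPM without replicate 2. Length centring moved 1 of the 37 by more than its SD, the astrocyte sum, to 9920 CPM. It left genes with a mean below 1 CPM, noncoding genes and mitochondrially encoded genes as counted, so the mitochondrial sum could not move. For other genes it shifted libraries around the mean of the same 3 libraries. Means over 3 libraries thus had little room to move here too. That list had an SD of only 128 CPM. On the TPM scale the mean shares were 1.91% for glial, 0.125% for vascular, 0.0872% for immune and 0.305% for ventricular markers. Leaving mitochondrially encoded genes out of the denominator gave a vascular share of 0.141%. The ventricular share rests on replicate 1, being 0.0109% without it and 0.160% without replicate 3. Ranking by TPM kept 59 of the 100 leading nuclear genes. The coefficient of variation between libraries was 16.3% to 51.9% when 1 library was left out, and the lowest value is the one without replicate 3. Depth limits genes below about 3 counts, so the leukocyte and cytokine genes with 0 counts are not shown to be absent.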
